A study of Mus musculus with 6 samples.

Results

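The Ikaros family of transcription factors has 5 members in the mouse, encoded by Ikzf1 (Ikaros), Ikzf2 (Helios), Ikzf3 (Aiolos), Ikzf4 (Eos) and Ikzf5 (Pegasus). All 13 probe sets that the annotation of the Affymetrix mouse genome array gives to these symbols alone were taken, so that the family makes up 5 of the 18193 genes named on the array. RNA was measured in early thymic progenitors, the most immature precursors of the T-cell lineage in the thymus, sorted for kit and CD44 on their surface and for the absence of CD25 and of lineage markers. There were 3 arrays of Tcf1-/- mice and 3 of Tcf1-/+ mice, all on the C57Bl/6 background and 10 weeks old. Tcf1 is a high-mobility-group transcription factor, encoded by Tcf7, that acts early in T-cell development. The titles name the control genotype Tcf1-/+, while another label field of the same arrays says wild type, so the labels leave it unsettled. The allele, and how many mice gave the cells of an array, are not given in the sources used here.

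Ikaros family proteins bind DNA through zinc fingers near their amino terminus and pair with each other through zinc fingers near their carboxyl terminus. They recruit the NuRD chromatin-remodelling and deacetylase complex, and they can act as repressors or activators. In the mouse, Ikaros is needed for lymphoid development from multipotent progenitors, Helios is expressed in early thymocytes and regulatory T cells, and Aiolos is best known from B-lineage and later lymphoid cells. Eos is known as a co-repressor partner in regulatory T cells, and Pegasus is the most divergent and widely expressed member.

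RefSeq promoter sequences (GRCm38.p6) were at hand for 2 of the 5 members, with 2 start sites for Ikzf1 and 1 for Ikzf5. They were read for the core letters bound by TCF/LEF proteins, because the deleted factor belongs to that family. Each of these 3 windows of 250 bases before the start held 1 match to CTTTGA or CTTTGT, searched on both strands, shown in capitals with its neighbouring bases on the gene's own strand.
Ikzf1, chr11:11685807-11685836, plus strand: tgcggctgcaaaCTTTGTgtgcgcggcccg
Ikzf1, chr11:11689943-11689972, plus strand: gctgttggtcttCTTTGTaggcctagcagg
Ikzf5, chr7:131410605-131410634, minus strand: cctcacacacccCTTTGAgtccccgcccac
The matches began 106 and 222 bases before the Ikzf1 starts and 144 bases before the Ikzf5 start. Of all 32851 promoter windows of that length, 27.6% held CTTTGA or CTTTGT. The letters TGGGAA, a core bound by Ikaros proteins, occurred on neither strand of the 3 windows and in 21.6% of all windows. These matches describe letters only, and no binding was measured.

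Values are log2 summaries per probe set, and 5.21 was taken as the background level, the 95th percentile of control probe sets for bacterial transcripts. Array medians lay between 5.802 and 5.865. Tcf1-/- replicate 2 stood apart, correlating between 0.870 and 0.893 with the other arrays, which correlated between 0.913 and 0.933 with each other over all probe sets. For the Tfrc transcript, log2 signal at the downstream end less that at the upstream end was 0.05 on Tcf1-/- replicate 2. The same measure was -0.88 and -0.70 on Tcf1-/- replicates 1 and 3, and -0.62, -1.08 and -0.64 on the Tcf1-/+ replicates. Whether it bears on how Tcf1-/- replicate 2 deviated was not tested. The arrays also differed in RNA from the Y chromosome. The mean log2 level of Eif2s3y, Kdm5d and Uty was 5.004, 8.49 and 8.42 on Tcf1-/- replicates 1, 2 and 3, and 4.07, 9.39 and 4.01 on the Tcf1-/+ replicates. Xist, the RNA of the inactive X chromosome, was at 13.45, 13.18 and 12.87 on the Tcf1-/- arrays and at 13.39, 5.12 and 13.44 on the Tcf1-/+ arrays. So 3 arrays had high Y-linked signal, and the Tcf1-/- arrays among them carried Xist as well. The labels give no sex. The targeted gene, Tcf7, was not analysed here.

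No difference in the family passed the test between genotypes. With limma and Benjamini-Hochberg adjustment over all 45037 probe sets, 0 of 13 family probe sets were called, beside 0% of all probe sets. Unadjusted p-values were under 0.05 for 0 of 13, beside 6.48% of all. Adjusted p-values of the family lay between 0.811 and 0.997, and each of the 13 intervals of 95% confidence held 0. The genotypes did not overlap on 1 of the 13, beside 11.8% of all probe sets. Differences are Tcf1-/- minus Tcf1-/+ on the log2 scale throughout, and their median was -0.01 over the family and 0.03 over all probe sets. Of the 13, 6 had a higher and 7 a lower Tcf1-/- mean, where 53% of all probe sets had a higher one. The higher genotype mean was above background on 10 of the 13. In sorted bulk cells, fewer cells of a type and less RNA per cell cannot be told apart.

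**Figure D1:**
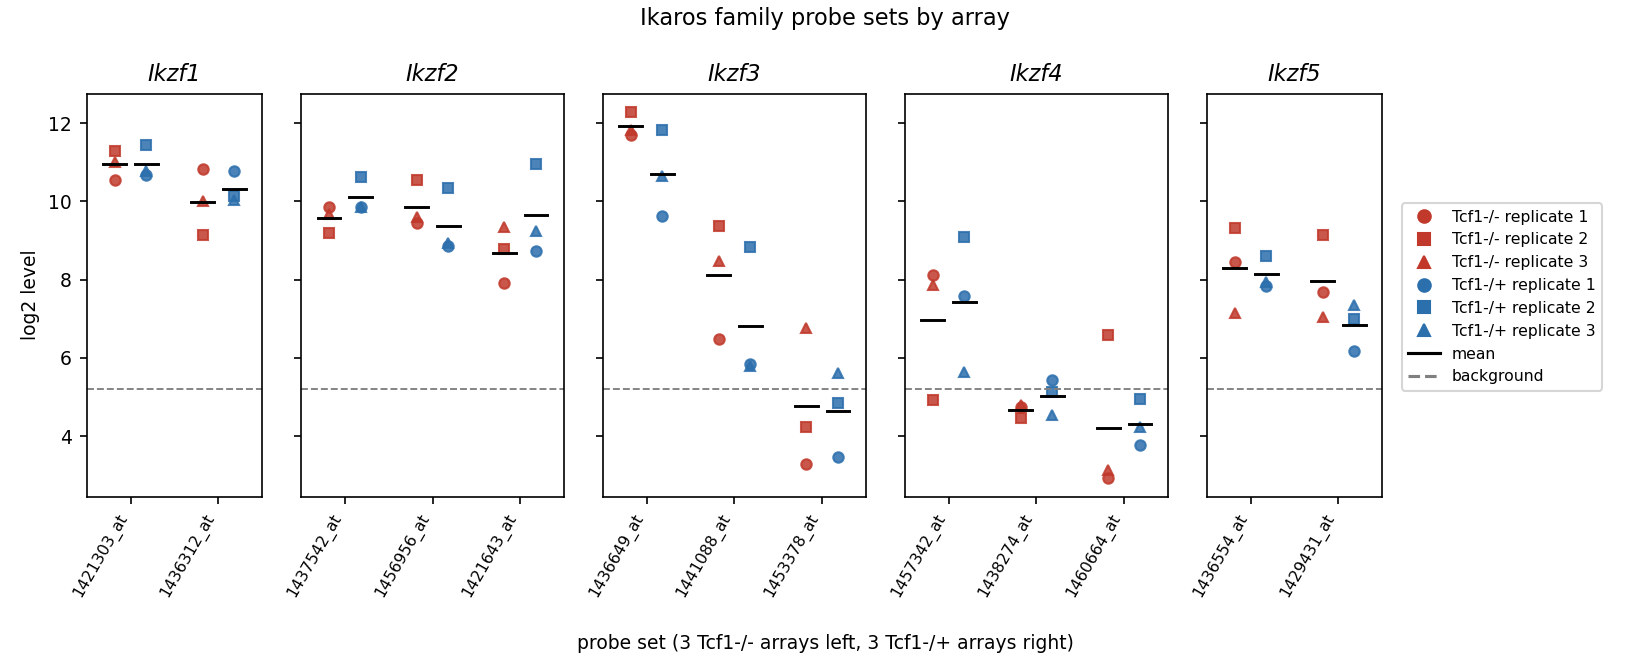
Log2 level (vertical axis) of the 13 Ikaros family probe sets on each array, with 3 Tcf1-/- arrays to the left (red) and 3 Tcf1-/+ arrays to the right (blue) of each position; black bars are means and the dashed line is the background level of 5.21. On the brightest probe set of Ikzf3 the Tcf1-/- arrays lie between 11.69 and 12.29, where the Tcf1-/+ arrays spread from 9.63 to 11.83.

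Ikzf1, the founding member, was well above background on every array. Its brighter probe set, 1421303_at, was at 10.55, 11.30 and 11.01 on the Tcf1-/- arrays and at 10.69, 11.43 and 10.79 on the Tcf1-/+ arrays. The genotypes interleaved, with the lowest level on a Tcf1-/- array and the highest on a Tcf1-/+ array. Means were 10.95 ± 0.38 in Tcf1-/- and 10.97 ± 0.41 in Tcf1-/+ (SD, n = 3 each), a difference of -0.01 with an interval of -0.78 to 0.75. The other probe set, 1436312_at, was at 10.83, 9.14 and 10.00 in Tcf1-/- and at 10.77, 10.13 and 10.04 in Tcf1-/+. Its difference was -0.32 (SE 0.47; standard errors here are limma's), and 0.10 without Tcf1-/- replicate 2, the lowest of the 6 arrays on it. That same array was the second highest on the brighter probe set, so the probe sets of Ikzf1 placed it near opposite ends of the order.

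Ikzf2, which encodes Helios, gave the 1 probe set of the family on which the genotypes did not overlap. On 1437542_at the Tcf1-/- arrays were at 9.85, 9.19 and 9.69 and the Tcf1-/+ arrays at 9.87, 10.63 and 9.85. The groups were set apart by 0.0032 log2 units, the gap between Tcf1-/- replicate 1 and Tcf1-/+ replicate 3. Means were 9.58 ± 0.35 in Tcf1-/- and 10.12 ± 0.44 in Tcf1-/+ (SD, n = 3 each), a difference of -0.54 (SE 0.32, limma adjusted p = 0.859). It was -0.35 without Tcf1-/- replicate 2 and -0.28 without Tcf1-/+ replicate 2, the arrays at its ends. Leaving out any other array gave -0.68 to -0.60.

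The other probe sets of Ikzf2 had differences of opposite sign. On 1421643_at the levels were 7.90, 8.78 and 9.36 in Tcf1-/- and 8.73, 10.95 and 9.24 in Tcf1-/+, with the genotypes overlapping. Its difference of -0.96 (SE 0.67) was -0.31 without Tcf1-/+ replicate 2, which was the highest array, and -0.57 without Tcf1-/- replicate 1, the lowest. Leaving out any other array gave -1.42 to -1.01. On 1456956_at the levels were 9.45, 10.55 and 9.60 in Tcf1-/- and 8.85, 10.35 and 8.94 in Tcf1-/+. Here each Tcf1-/- array was above replicates 1 and 3 of Tcf1-/+, and the difference was 0.49 (SE 0.51). It was 0.97 without Tcf1-/+ replicate 2, and 0.15, 0.22 and 0.27 without Tcf1-/- replicate 2, Tcf1-/+ replicate 1 and Tcf1-/+ replicate 3. Averaged over its 3 probe sets, Ikzf2 differed by -0.34 (SE 0.42).

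**Figure D2:**
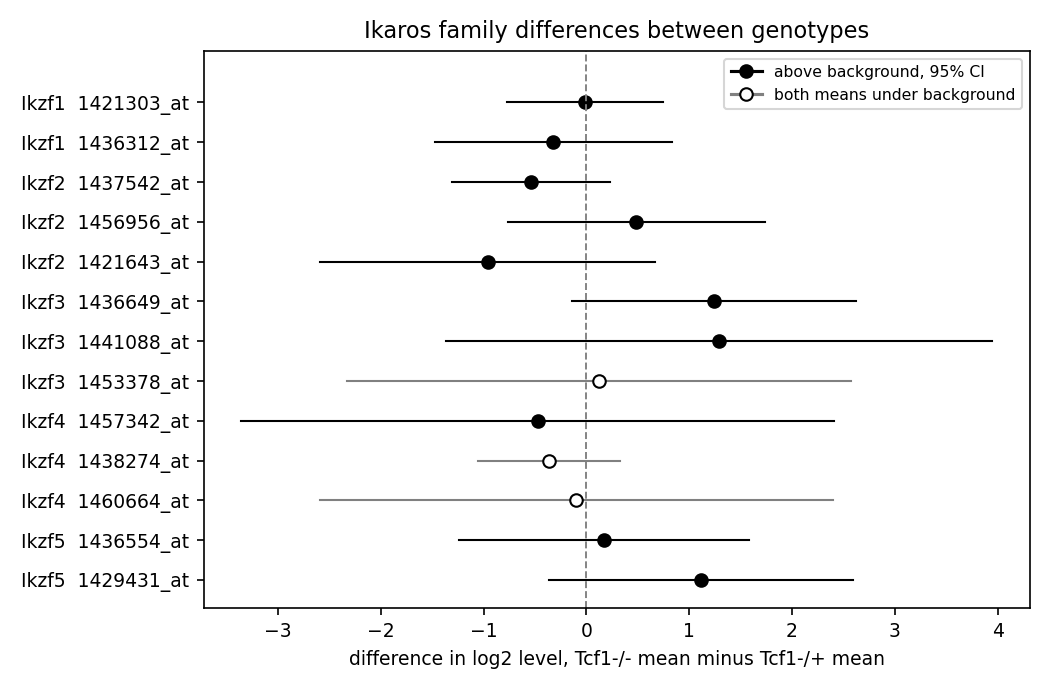
Difference in log2 level between genotypes, Tcf1-/- mean minus Tcf1-/+ mean (horizontal axis), for the 13 Ikaros family probe sets, with 95% confidence intervals from limma; open points have both means under background. All 13 intervals cross 0, and the brightest probe set of Ikzf3 reaches least far below it, to -0.14.

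Ikzf3, which encodes Aiolos, had the lowest unadjusted p of the family, 0.0701 from limma, with an adjusted p = 0.811. Its brightest probe set, 1436649_at, was at 11.69, 12.29 and 11.84 on the Tcf1-/- arrays and at 9.63, 11.83 and 10.64 on the Tcf1-/+ arrays. The Tcf1-/- arrays lay within 0.60 log2 units of each other, while the Tcf1-/+ arrays spread over 2.20 and their replicate 2 reached into the Tcf1-/- range. Means were 11.94 ± 0.31 in Tcf1-/- and 10.70 ± 1.10 in Tcf1-/+ (SD, n = 3 each). The difference was 1.24 (SE 0.57), equal to 2.37-fold, with an interval of -0.14 to 2.62. Without Tcf1-/+ replicate 1, the lowest array, it was 0.71, and without Tcf1-/+ replicate 2 it was 1.81. With any other array left out it was 1.07 to 1.37.

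The second probe set of Ikzf3, 1441088_at, was at 6.48, 9.37 and 8.48 in Tcf1-/- and at 5.85, 8.83 and 5.79 in Tcf1-/+. Its difference of 1.29 (SE 1.09) had the same direction, with a wider spread in both genotypes than on 1436649_at. It was 0.66, 0.77 and 0.81 without Tcf1-/- replicate 2, Tcf1-/+ replicate 3 and Tcf1-/+ replicate 1, and 2.11 and 2.29 without Tcf1-/- replicate 1 and Tcf1-/+ replicate 2. The third, 1453378_at, had both means under background, at 4.76 in Tcf1-/- and 4.64 in Tcf1-/+. On it only Tcf1-/- replicate 3 and Tcf1-/+ replicate 3 were above background, at 6.76 and 5.62, so the size of its difference is not well measured.

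On 2 of the 3 probe sets of Ikzf3, the arrays of high Y-linked signal all lay above those of low signal, though no class difference passed the test. On 1441088_at the 3 arrays of high Y-linked signal were between 8.48 and 9.37 and the 3 of low signal between 5.79 and 6.48. With genotype in the same fit, the classes differed by 2.73 on this probe set, an adjusted p of 0.742 from limma over all probe sets. On 1436649_at the class means were 11.99 in high and 10.65 in low arrays, and the classes did not overlap either, with an adjusted p of 0.893 from limma for the class term. On 1453378_at, the probe set under background, the class means were 5.27 in high and 4.12 in low arrays, the classes overlapped and the adjusted p from limma was 0.981. The classes also did not overlap on 1421303_at of Ikzf1 and 1456956_at of Ikzf2, which makes 4 of 13 family probe sets, beside 10.5% of all probe sets. This split was drawn from the data, and it was chosen with the family's values known.

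Within these classes the genotype difference of Ikzf3 on 1436649_at was 0.24 among arrays of high Y-linked signal, 2 of Tcf1-/- and 1 of Tcf1-/+. It was 1.56 among those of low signal, 1 of Tcf1-/- and 2 of Tcf1-/+. The test of the gap between these values gave an unadjusted p = 0.178 and an adjusted p = 1.00 from limma, so they were not told apart. On 1441088_at the differences were 0.10 in the high and 0.66 in the low class. The high class was not uniform in Xist. It was at 13.18 and 12.87 on the Tcf1-/- arrays of that class and at 5.12 on its Tcf1-/+ array. Adding the Y-linked level to the fit, 1436649_at differed by 0.86 and 1441088_at by 0.39. For 1421643_at of Ikzf2 the same term gave -1.49, with an unadjusted p = 0.00398 and an adjusted p = 0.616, and the values within classes were -1.88 in high and -1.08 in low arrays. For 1437542_at of Ikzf2 they were -1.19 in high and -0.01 in low arrays.

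**Figure D3:**
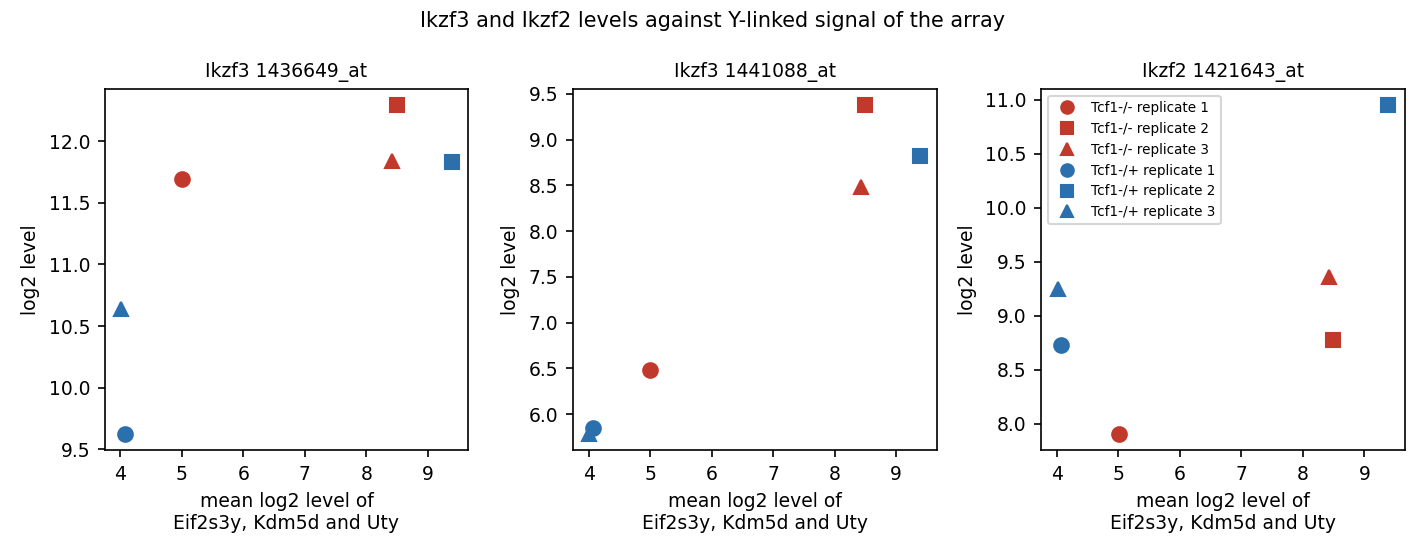
Log2 level (vertical axis) of 2 probe sets of Ikzf3 and 1 of Ikzf2 against the mean log2 level of the Y-linked genes Eif2s3y, Kdm5d and Uty (horizontal axis), 1 point per array, Tcf1-/- in red and Tcf1-/+ in blue. The 3 arrays on the right have the higher Ikzf3 levels on both probe sets, and Tcf1-/+ replicate 2 is highest for Ikzf2 on 1421643_at.

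Ikzf4, which encodes Eos, had 1 of its 3 probe sets above background by genotype mean. This probe set, 1457342_at, was at 8.13, 4.92 and 7.86 in Tcf1-/- and at 7.58, 9.10 and 5.64 in Tcf1-/+. Both genotypes held high and low arrays, and Tcf1-/- replicate 2 was under background. The difference was -0.47 (SE 1.18), with an interval of -3.36 to 2.41, and it was 0.55 without Tcf1-/- replicate 2 and 0.36 without Tcf1-/+ replicate 2. It was -1.05, -0.92 and -1.37 without Tcf1-/- replicate 1, Tcf1-/- replicate 3 and Tcf1-/+ replicate 3. On 1438274_at and 1460664_at both genotype means were under background. On the last of these, Tcf1-/- replicate 2 was at 6.59 and the other 5 arrays between 2.92 and 4.95, so this array was highest on 1460664_at and lowest on 1457342_at and on 1438274_at, where it was at 4.46.

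Ikzf5, which encodes Pegasus, was above background on all 6 arrays with both probe sets. On 1436554_at the levels were 8.46, 9.31 and 7.14 in Tcf1-/- and 7.84, 8.61 and 7.95 in Tcf1-/+. The Tcf1-/- arrays held both the highest and the lowest value, and the difference was 0.17 (SE 0.58). Without Tcf1-/- replicate 2 it was -0.34 and without Tcf1-/- replicate 3 it was 0.75. On 1429431_at the levels were 7.68, 9.14 and 7.04 in Tcf1-/- and 6.17, 6.997 and 7.34 in Tcf1-/+. Its difference of 1.12 (SE 0.60, limma adjusted p = 0.844) was 0.53 without Tcf1-/- replicate 2, the highest array, and 1.57 without Tcf1-/- replicate 3. With any other array left out it was 0.78 to 1.37. Tcf1-/- replicate 2 was the highest or the lowest array on 8 of the 10 family probe sets above background, beside 49.1% of all 29527 such probe sets.

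Markers of the sort gate and of other cells were read beside these levels. Of the gate, Kit and Cd44 were above background in both genotypes, with differences of -1.36 (SE 0.71) and 0.12 (SE 0.30), both with overlap. Il2ra, which encodes the CD25 selected against, had means of 10.28 in Tcf1-/- and 9.59 in Tcf1-/+, a difference of 0.69 (SE 0.50) with overlap. The summed log2 level of 8 progenitor and gate markers lay between 70.8 and 71.3 in Tcf1-/- and between 75.4 and 75.9 in Tcf1-/+. Of these 8, 2 had a higher and 6 a lower Tcf1-/- mean, none past the adjusted threshold in limma. The genotypes did not overlap on 3 of them, beside 12.2% of all genes. These were Flt3, Cd34 and Hes1, with differences of -1.53, -1.24 and -0.50. Of 13 measured NK and innate lymphoid markers, 10 had a mean above background in each genotype. Their summed level lay between 105.3 and 110.3 in Tcf1-/- and between 89.2 and 95.5 in Tcf1-/+. Among Tcf1-/+ arrays it was highest on replicate 2, as was Ikzf3 on 1436649_at. Among Tcf1-/- arrays it was highest on replicate 3, while Ikzf3 on 1436649_at was highest on replicate 2. Ncr1 and Tbx21, markers of NK and group 1 innate lymphoid cells among others, had means under background in both genotypes. On single arrays, Ncr1 was above it at 5.665 on Tcf1-/- replicate 3 and 5.259 on Tcf1-/+ replicate 3. Tbx21 was above it at 5.47 on Tcf1-/+ replicate 1. Eomes, also in this list, had means of 4.80 in Tcf1-/- and 5.55 in Tcf1-/+, with 7.10 on Tcf1-/+ replicate 2. Of the 13, 9 had a higher and 4 a lower Tcf1-/- mean, none past the adjusted threshold in limma, and 6 did not overlap between genotypes, beside 12.2% of all genes. Cxcr6, which encodes a chemokine receptor, differed by 4.50 among these 6, and the granzyme genes Gzmb and Gzma by 4.06 and 3.05. Id2, which encodes a transcriptional regulator, differed by 3.19, the cytokine receptor gene Il18r1 by 2.43 and the lectin-like receptor gene Klrd1 by -1.49. Of 9 measured B-lineage markers, 6 had a mean above background in Tcf1-/- and 5 in Tcf1-/+, with summed levels of 49.2 to 51.9 in Tcf1-/- and 48.0 to 50.2 in Tcf1-/+, and Blnk, Ebf1 and Ms4a1 were under background in both genotypes. Regulatory and mature T-cell markers, 10 in number, summed to between 64.1 and 71.0 in Tcf1-/- and between 56.9 and 67.1 in Tcf1-/+, with Ctla4 and Tnfrsf4 under background in both and 7 above it in each. Their mean log2 level was 6.41, 7.10 and 6.68 on Tcf1-/- replicates 1, 2 and 3. It was 5.69, 6.71 and 5.96 on the Tcf1-/+ replicates. Within each genotype the arrays had the same order for Ikzf3 on 1436649_at. Of the 10 T-cell markers, 6 had a higher and 4 a lower Tcf1-/- mean, again none past the adjusted threshold in limma. On 3 of them the genotypes did not overlap, beside 12.2% of all genes. Foxp3, which encodes the defining factor of regulatory T cells, was at 5.77, 6.61 and 6.01 in Tcf1-/- and at 4.87, 5.63 and 4.66 in Tcf1-/+, so it was above background on all 3 Tcf1-/- arrays and on 1 of 3 Tcf1-/+ arrays. The others that did not overlap were Cd4, with a difference of 2.93, and Cd5, with -1.12, while Il2rb differed by 2.36 with overlap. The part of any of these in the family's levels was not tested.

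Partners, regulators and described targets of Ikaros proteins also gave no call. Of the 64 measured members of these 4 lists, 0 passed the limma threshold. The NuRD complex holds the Mi-2 helicases, deacetylases and accessory subunits, and 6 of its 13 measured genes had a higher and 7 a lower Tcf1-/- mean, with a median difference of -0.16. The count of lower ones was 11 without Tcf1-/+ replicate 1 and 10 with probe sets averaged per gene. Over all 18193 genes 54.3% had a higher Tcf1-/- mean, and the median was 0.04. Unadjusted limma p-values were under 0.05 for 1 higher and 2 lower NuRD genes, beside 3.38% of all genes for higher, 3.4% for lower and 6.78% for either direction. The genotypes did not overlap on 2 of the 13 NuRD genes, Mbd2 and Mta1, beside 12.2% of all genes. Mbd2, a methyl-CpG-binding subunit, was at 11.78 ± 0.02 in Tcf1-/- and 10.96 ± 0.40 in Tcf1-/+ (SD, n = 3 each), a difference of 0.82. Mta1 and Mta3, metastasis-associated subunits, differed by -0.67 and -1.24, each with 1 other probe set of opposite sign. The Mi-2 gene Chd3 differed by -0.86 (SE 0.39), while Chd4, the Mi-2 form best known as an Ikaros partner, differed by -0.16 (SE 0.33).

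Of 11 other co-regulators, 9 had a lower and 2 a higher Tcf1-/- mean, with a median difference of -0.18. Ctbp1, a co-repressor that binds Ikaros and Eos, was at 8.84 ± 0.53 in Tcf1-/- and 9.73 ± 0.39 in Tcf1-/+ (SD, n = 3 each). Ezh2, a histone methyltransferase, was at 9.88 ± 0.38 in Tcf1-/- and 10.57 ± 0.07 in Tcf1-/+ (SD, n = 3 each). Their differences were -0.88 and -0.69. These were the 2 of the 11 genes on which the genotypes did not overlap, beside 12.2% of all genes. The chromatin-remodelling subunits Smarcb1 and Smarcc1 differed by -0.72 (SE 0.51) and -0.66 (SE 0.32), with overlap, and 2 of the 4 probe sets of Smarcc1 had the opposite sign. Among 10 measured genes for the cereblon ubiquitin ligase, casein kinase 2 and protein phosphatase 1, 6 had lower and 4 higher means, with a median of -0.16. Csnk2a2, a catalytic subunit of casein kinase 2, differed by -0.56, with 1 of its 7 probe sets of opposite sign, and Ppp1cb, a phosphatase subunit, by 0.30, with 1 of 4 opposite. On these 2 of the 10 genes the genotypes did not overlap, beside 12.2% of all genes. The ligase genes Rbx1 and Cul4b differed by -0.77 (SE 0.42) and -0.62 (SE 0.32), and Crbn, the substrate receptor, by -0.28 (SE 0.32).

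Of 30 genes described as bound or regulated by Ikaros in lymphocyte precursors, 13 had a higher and 17 a lower Tcf1-/- mean, with a median of -0.08. The genotypes did not overlap on 6 of them, beside 12.2% of all genes. Unadjusted limma p-values were under 0.05 for 2 higher and 4 lower ones, beside 3.38% and 3.4% of all genes. The 4 of smallest p were Cd4, a co-receptor, with a difference of 2.93, Il7r, the interleukin 7 receptor, with 2.00, Dntt, which adds bases at receptor junctions, with -1.36, and the cytokine receptor gene Flt3 with -1.53. Their limma adjusted p-values lay between 0.464 and 0.598. The B-lineage surrogate light chain genes Igll1 and Vpreb1, also in this list, differed by 0.10 (SE 0.26) and 0.40 (SE 0.77).

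**Figure D4:**
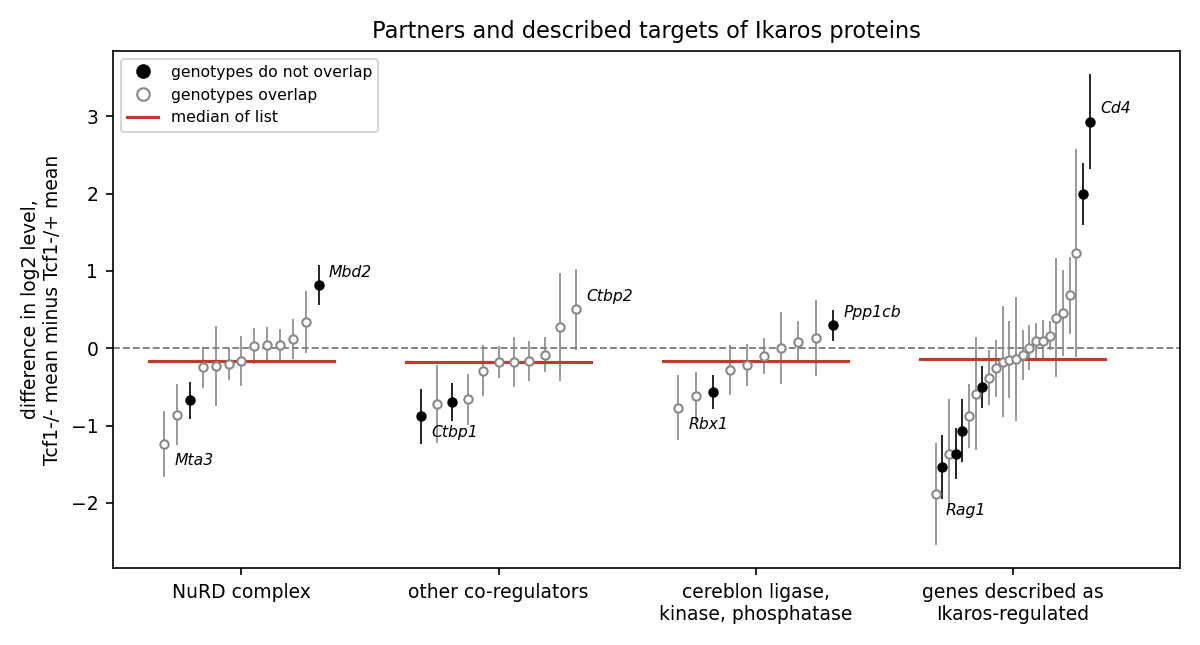
Difference in log2 level, Tcf1-/- mean minus Tcf1-/+ mean (vertical axis), of genes above background in 4 lists of Ikaros partners, regulators and described targets, with limma standard errors as bars and list medians in red. Medians over the members shown lie between -0.18 and -0.14, and filled points, on which the genotypes do not overlap, fall on both sides of 0.

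The genes whose levels followed each member most closely over the 6 arrays were found by the root mean square difference of array-centred profiles. Closest to Ikzf3 were Zfp81, Trim12c and Clock, with 0.19, 0.22 and 0.26 log2 units, against a median of 1.21 over 7075 genes compared. Zfp81, for one, was at 8.74, 9.16 and 8.71 in Tcf1-/- and at 6.93, 8.80 and 7.33 in Tcf1-/+, high on the same 4 arrays as Ikzf3. For Ikzf2 the closest were Zfp760, Sesn1 and Pttg1, with 0.09, 0.12 and 0.13 log2 units. Closest to Ikzf1 were Rin1, Fam227b and Cspg4, each under 0.05 log2 units from a profile that itself varied little, with an SD of 0.35. Scml4, Ankrd52 and S100a1 were closest to Ikzf4, at 0.30 to 0.39 log2 units, and Ciz1, Clec4e and Ebag9 to Ikzf5, at 0.13 to 0.19. With so many genes and 6 arrays, near matches of this kind are met readily, and the values are given as a description.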

How the data were processed

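Each deposited value is a log2 summary of 1 probe set, used as given. The authors' summarization and normalization are not stated in these sources, and the log2 scale was read off the values, with a range of 2.15 to 14.8 and 0 missing. Per the labels' protocols, the RNA of small sorted samples was amplified with a whole-transcriptome kit, biotin-labelled and hybridized. Without the 64 control probe sets, 45037 were tested, of which 34945 had 1 symbol, 932 several and 9160 none here. Genotypes were taken from the titles. limma 3.58.1 (R 4.3.3) was fitted over all 6 arrays without covariates, with two-sided tests, Benjamini-Hochberg adjustment and a threshold of 0.05. For gene counts, the probe set with the highest mean over the arrays stands for its gene. An exact permutation test was not used, since 3 against 3 allows no p under 0.1. Arrays carry no read depth, so their number limits the precision. Each p-value sets a difference only against the spread between these arrays, which limma moderates over all probe sets.

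The members, gene lists and tests were chosen with earlier results of these data known. The genes named are all family probe sets, the 4 list members of smallest unadjusted p above background in each list, and the 3 genes of closest profile to each member, among genes above background with an SD over the arrays of at least 0.5 times the member's. Other named list genes (Chd4, Crbn, Igll1, Vpreb1, Kit, Cd44, Il2ra, Cd34, Hes1, Cxcr6, Gzma, Gzmb, Id2, Il18r1, Klrd1, Eomes, Foxp3, Cd4, Cd5, Il2rb, Mpo and the markers under background) were chosen after their values were seen. Some list members were not analysed here. Unused columns of values numbered 0.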

Additional observations from a re-analysis of the deposited data

How the results depend on the processing

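Calls stayed at 0 for the family and for all probe sets under the replicate block, quantile normalization, median shift, filter, floor, array weights, other moderation, Y-linked terms, single Y-linked classes and each left-out array. With probe sets averaged per gene, 0 of the 5 family genes were called. Same-numbered arrays deviated together with correlations of 0.012 to 0.045, which cannot settle whether the numbers pair the arrays. The replicate block gave 0 calls in both counts. With it, the unadjusted limma p of Ikzf3 1436649_at was 0.0316 (adjusted 0.697), where the main fit gave 0.0701. That of Ikzf2 1437542_at was 0.228 (adjusted 0.863), where the main fit gave 0.137. The values of Ikzf2 1421643_at and 1437542_at, Ikzf3 1436649_at and 1441088_at, Ikzf4 1438274_at and Ikzf5 1429431_at kept their sign under all alternatives run. Over all members, signs turned in 21 of 236 alternative values. Ikzf1 1421303_at was 0.021 with quantile normalization, and -0.19 to 0.22 over left-out arrays, with 0.19 without Tcf1-/- replicate 1. Ikzf1 1436312_at was 0.43 on low Y-linked arrays and -0.74 to 0.10 over left-out arrays, and Ikzf2 1456956_at was -0.27 on high Y-linked arrays. Ikzf3 1453378_at was -0.21 with the Y-linked covariate, -0.30 with the class term, -1.24 on low Y-linked arrays, and -0.88 to 0.85 over left-out arrays, with -0.47 without Tcf1-/+ replicate 1. Ikzf4 1457342_at was 1.51 on low Y-linked arrays and -1.37 to 0.55 over left-out arrays, with 0.36 without Tcf1-/+ replicate 2. Ikzf4 1460664_at was 0.46 with the floor and -1.28 to 0.55 over left-out arrays, with 0.44 and 0.22 without Tcf1-/- replicate 3 and Tcf1-/+ replicate 2. Ikzf5 1436554_at was -0.020 with array weights, -0.39 on high Y-linked arrays, and -0.34 to 0.75 over left-out arrays. NuRD genes with a lower mean numbered 6 to 11 over left-out arrays, the most without Tcf1-/+ replicate 1, and 10 with probe sets averaged per gene. Within a Y-linked class 1 genotype has a lone array, which is assumed to vary like the other genotype. The class term and the test between classes were added after the data were seen. The cause of these turns was not tested.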

Other observations

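Markers of further cell types had summed log2 levels that overlapped between genotypes. Myeloid markers, 10 measured, summed to 70.4 to 84.6 in Tcf1-/- and 64.4 to 83.9 in Tcf1-/+. Of these, 7 had a mean above background in each genotype, with Mpo at 13.08 in Tcf1-/- and 13.15 in Tcf1-/+. Itgam and Cd14 were under background in both. A higher Tcf1-/- mean was seen for 7 of the 10 and a lower one for 3, none past the adjusted threshold in limma. Dendritic markers, 9 measured, summed to 61.9 to 68.7 in Tcf1-/- and 66.1 to 73.2 in Tcf1-/+. Erythroid markers, 6 measured, summed to 41.5 to 49.0 in Tcf1-/- and 34.4 to 47.5 in Tcf1-/+. Stromal markers, 8 measured, summed to 47.0 to 48.2 in Tcf1-/- and 43.2 to 47.4 in Tcf1-/+. Of these, 5 had a mean above background in each genotype, and Cdh5, Foxn1 and Pdgfra were under it in both.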
